A study of Anguilla japonica with 6 samples.

Results

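The genes lhb and fshb, which encode the beta subunits of luteinizing hormone and follicle-stimulating hormone, and htr1aa, which encodes a serotonin 1A receptor, were followed in whole pituitaries of female eels of the species Anguilla japonica, the Japanese eel. They are 3 of the 32359 genes in the deposited table and were found by their symbols. They were chosen by their values in these same libraries: a large difference of lhb between the groups, and an uneven level of fshb and htr1aa among matured pituitaries. Their levels are therefore given as a description, with no test. Matured females gave 3 libraries and pre-matured females gave 3. Total RNA of whole pituitary was sequenced, and the labels give no strain, age in years, treatment or batch. Natural and induced maturation cannot be told apart from them, and they leave unsaid whether a library is 1 fish or a pool. Values are FPKM, reads scaled to the length of the gene and to the depth of the library, so levels of different genes are comparable per length. Depth, rebuilt from the values, ran between 16033675 and 19619964 reads for the matured group, and between 18206029 and 19276653 reads for the pre-matured group.

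Gonadotropins are dimers of a shared alpha subunit and a hormone-specific beta subunit, made in gonadotrope cells of the anterior pituitary. In teleosts luteinizing hormone is best known for driving final oocyte maturation and ovulation, and follicle-stimulating hormone for driving earlier follicle growth. Gonadotropin-releasing hormone, sex steroids, activins and dopamine act on the gonadotropes, and serotonin is known to stimulate gonadotropin release in goldfish. The serotonin 1A receptor is a G protein-coupled receptor that acts through inhibitory G proteins. The alpha subunit gene, cga, was not found by its symbol in the table and was not analysed here. In whole pituitary RNA, more cells of a type and more RNA per cell cannot be told apart.

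Lhb was among the most abundant transcripts of matured pituitaries and near the limit of detection in pre-matured 1 and 2. It stood at 13430, 5835 and 11134 FPKM in matured 1, 2 and 3, against 0.543, 0.394 and 29.8 FPKM in pre-matured 1, 2 and 3. The groups did not overlap: the lowest matured library was 196 times the highest pre-matured one. Within the matured group the highest library was 2.30 times the lowest, while pre-matured 3 was 54.8 times the next pre-matured library. By rank, lhb was the gene with the 3rd, 5th and 3rd highest FPKM in matured 1, 2 and 3, and it took 1.28%, 0.557% and 1.06% of their reads. In pre-matured libraries it ranked 17670, 19507 and 2112 among 21894, 23503 and 22711 genes above 0. The values of pre-matured 1 and 2 rest on 10 and 7 reads, with exact 95% Poisson intervals of 0.260 to 0.999 and 0.158 to 0.812 FPKM, so these libraries were not told apart. Pre-matured 3 rests on 518 reads (27.3 to 32.5 FPKM) and lies far outside both intervals. The mean log2 fold change on the log2(FPKM + 1) scale was 11.21, and 12.67 without pre-matured 3.

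Fshb was high in 1 matured library only. It stood at 4.44, 514 and 0.899 FPKM in matured 1, 2 and 3, against 7.25, 4.71 and 21.2 FPKM in pre-matured 1, 2 and 3. Matured 2 was thus 116 times the next matured library, and matured 1 and 3 lay below the lowest pre-matured library, so the groups overlapped. The matured values rest on 78, 11048 and 16 reads and the pre-matured ones on 153, 96 and 422 reads. The intervals of matured 1 (3.51 to 5.54 FPKM) and matured 3 (0.514 to 1.46 FPKM) did not overlap each other, while that of matured 1 overlapped that of pre-matured 2 (3.82 to 5.76 FPKM). In matured 2 fshb ranked 135 among all genes, against 11280 and 17913 in matured 1 and 3 and 6804, 10111 and 3015 in the pre-matured libraries. The direction between groups rested on matured 2: the mean log2 fold change was 0.78 with all libraries and -1.66 without it. The matured median was 4.44 FPKM and the pre-matured median 7.25 FPKM, the opposite order to the means of 173 ± 295 and 11.0 ± 8.86 FPKM (SD, n = 3 each).

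Htr1aa was low in 5 of the 6 libraries and raised in the same matured library as fshb. It stood at 1.16, 37.5 and 1.15 FPKM in matured 1, 2 and 3, with 40, 1577 and 40 reads. In pre-matured 2 and 3 it stood at 0.401 and 0.307 FPKM, with 16 and 12 reads. Pre-matured 1 is listed at 0, where 3 reads, about the limit that a count of 0 allows, would be 0.0725 FPKM. The exact 95% Poisson interval, as used for the other values, reaches 0.0892 FPKM there. All matured libraries lay above all pre-matured ones, and the lowest matured library was 2.86 times the highest pre-matured one. Matured 1 and 3 had almost the same value, and matured 2 was 32.2 times the higher of them. The mean log2 fold change was 2.20, and 0.82 without matured 2, and 4.90 with voom on rebuilt reads. The intervals of matured 1 (0.831 to 1.58 FPKM) and matured 3 (0.819 to 1.56 FPKM) still lay above that of pre-matured 2 (0.229 to 0.651 FPKM). These intervals cover counting error only.

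**Figure D1:**
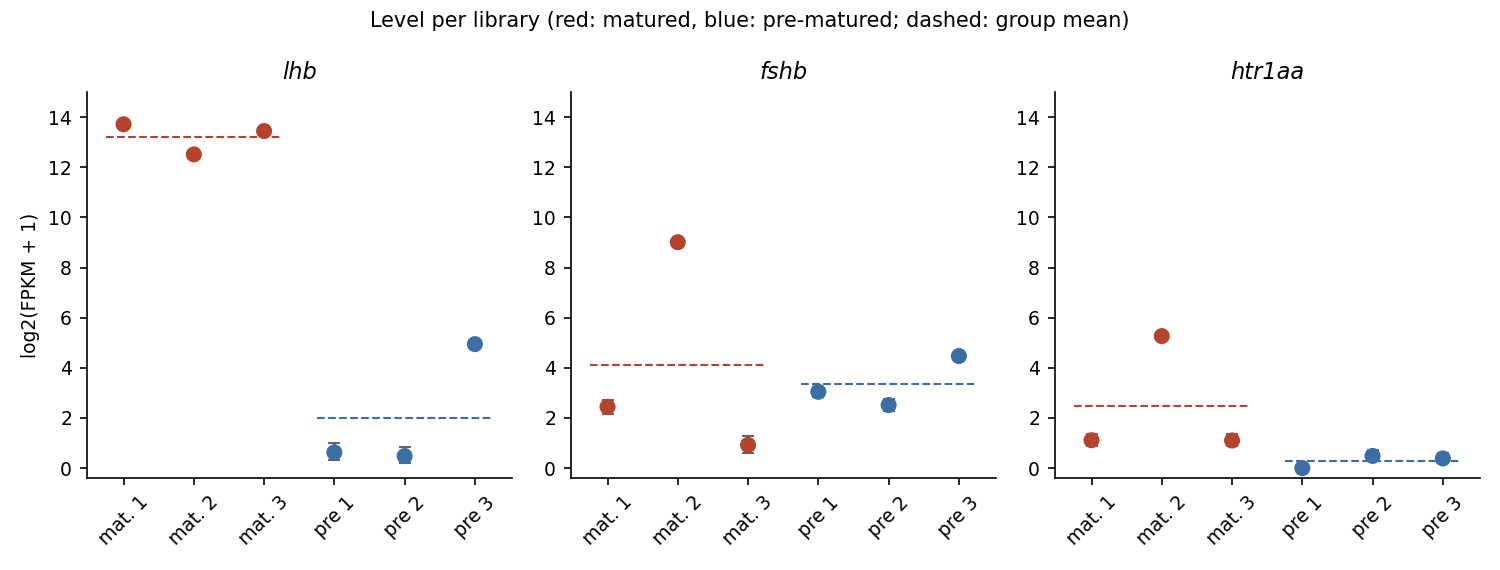
Level of lhb, fshb and htr1aa in each library on the log2(FPKM + 1) scale, with exact 95% Poisson intervals as bars and the mean of each group as a dashed line. Lhb separates the groups, while fshb (514 FPKM) and htr1aa (37.5 FPKM) are both high in matured 2, and lhb (29.8 FPKM) and fshb (21.2 FPKM) are both highest in pre-matured 3 among pre-matured libraries.

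All 3 genes passed the filter used for testing, which asks for 1 FPKM in 3 of the 6 libraries, htr1aa only through its matured values. Lhb and htr1aa were 2 of 3 genes with higher matured values and no overlap, and no member was lower without overlap. Over the 17887 genes past the filter, matured values lay above without overlap for 33.3% and below without overlap for 15.9%. The members were chosen on these values, so nothing is read from that count.

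The balance of the 2 beta subunits shifted towards lhb in every matured library, by very different amounts. The ratio of lhb to fshb in FPKM was 3023, 11.3 and 12388 in matured 1, 2 and 3, against 0.0749, 0.0836 and 1.41 in pre-matured 1, 2 and 3. All matured ratios lay above all pre-matured ones, with the lowest matured ratio 8.06 times the highest pre-matured one. A ratio within a library does not change when the library is rescaled by 1 factor. As exact 95% binomial intervals of the read shares, the ratio was 2422 to 3824 in matured 1, 11.1 to 11.6 in matured 2 and 7628 to 21673 in matured 3. It was 0.0352 to 0.142 in pre-matured 1, 0.0327 to 0.179 in pre-matured 2 and 1.24 to 1.60 in pre-matured 3. The 3 matured ratios thus differed from each other beyond counting error, whereas pre-matured 1 and 2 did not. Put as shares of the summed FPKM of both genes, lhb made up 99.97%, 91.9% and 99.99% in matured libraries and 6.97%, 7.72% and 58.5% in pre-matured ones. The mean log2 ratio was 9.55 ± 5.34 in matured and -2.28 ± 2.40 in pre-matured libraries (SD, n = 3 each), a difference of 11.83 that lay between 9.81 and 14.85 when any 1 library was left out.

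**Figure D2:**
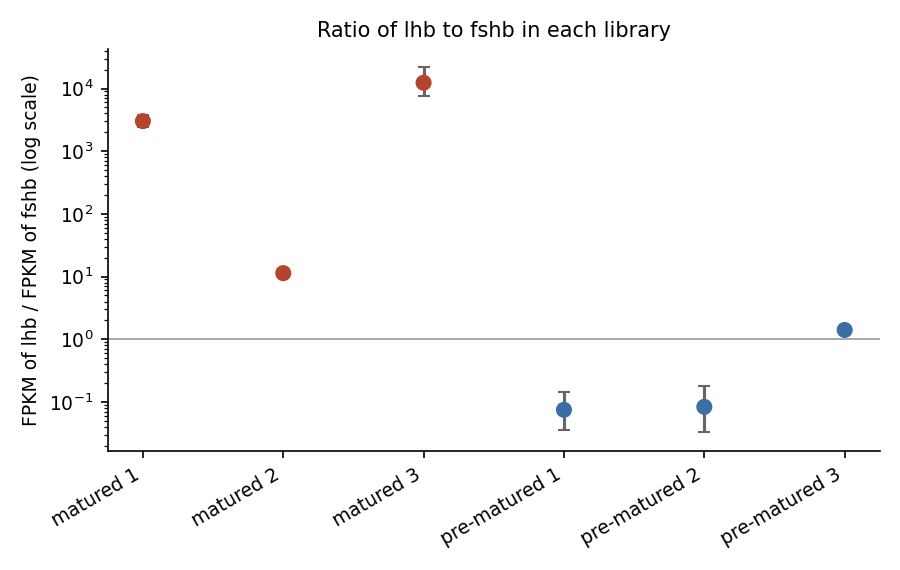
Ratio of lhb to fshb FPKM in each library on a log scale, with exact 95% binomial intervals of the read shares as bars and a grey line at equal levels. Matured 2 (11.3) sits between the other matured libraries (3023 and 12388) and pre-matured 3 (1.41), the only pre-matured library above the line.

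Growth hormone, gh1, another abundant hormone transcript, kept a narrower ratio to lhb in matured pituitaries. It was at 28533, 9484 and 26965 FPKM in matured 1, 2 and 3, against 3092, 1321 and 3141 FPKM in pre-matured 1, 2 and 3. Its ratio to lhb was 2.12, 1.63 and 2.42 in matured libraries and 5692, 3352 and 105 in pre-matured ones. Both hormone genes were lowest in matured 2 among matured libraries.

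Fshb and htr1aa shared their highest value in matured 2, and differed in how they varied over the other libraries. The ratio of fshb to htr1aa was 3.82, 13.7 and 0.784 in matured 1, 2 and 3, and 11.8 and 68.9 in pre-matured 2 and 3. Between matured 1 and 3 fshb differed beyond its counting intervals, while htr1aa was level at 1.16 and 1.15 FPKM. Likewise fshb was highest in pre-matured 3 among pre-matured libraries, where htr1aa was slightly below pre-matured 2. The highest minus the lowest log2(FPKM + 1) among matured libraries was 8.08 for fshb, which was the widest of all 17887 genes tested. It was 4.16 for htr1aa, a spread that 28 genes (0.157%) reached, htr1aa included. It was 1.20 for lhb, reached by 9.07% of genes, and the median of all genes was 0.48. Fshb and htr1aa were chosen for their uneven matured levels, so nothing is read from their place among all genes. Among pre-matured libraries the difference was 4.47 for lhb (0.151% of genes), 1.96 for fshb (3.84%) and 0.49 for htr1aa (67.1%), with a median of 0.66. After median-ratio scaling fshb was at 4.13, 431 and 0.850 FPKM across matured 1, 2 and 3, and htr1aa at 1.08, 31.4 and 1.08 FPKM.

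**Figure D3:**
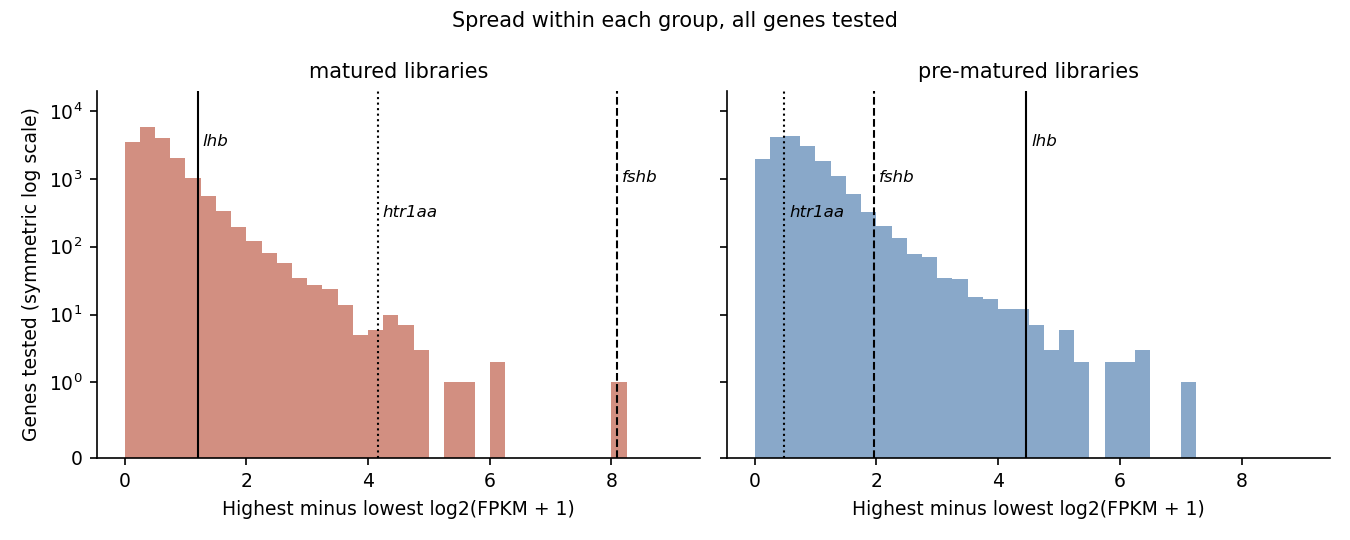
Number of genes tested by the highest minus the lowest log2(FPKM + 1) within the 3 matured (left) and the 3 pre-matured (right) libraries, on a symmetric log scale, with lines for lhb, fshb and htr1aa. Fshb (8.08) lies at the far end among matured libraries, and lhb (4.47) in the upper tail among pre-matured libraries. Fshb and htr1aa were chosen for their uneven matured levels.

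Few genes shared this excess in matured 2. Genes with FPKM of 5 or more in a library, and FPKM + 1 at least 8 times that of both other libraries of the group, numbered 13, 16 and 18 in matured 1, 2 and 3. They numbered 15, 11 and 48 in pre-matured 1, 2 and 3. By this count matured 2 lay between the other matured libraries, but with a 4-fold excess in place of 8 the numbers were 37, 62 and 50, the most in matured 2. Fshb was the first of the 16 by excess and htr1aa the fourth. The 16 included 4 genes with a symbol. The other two were cuzd1.2, which encodes a CUB and zona pellucida-like domain protein (0, 8.05 and 0 FPKM in matured 1, 2 and 3), and a gene with a clone name only (1.76, 45.1 and 1.01 FPKM). In the opposite direction, 11 genes were as far below both other libraries in matured 2, a count added after the values were seen, and 3 of them have a symbol. Gnrhr4, a receptor gene for gonadotropin-releasing hormone, was first, with 287, 14.5 and 254 FPKM in matured 1, 2 and 3. The other two were gad3, of the glutamate decarboxylase family that makes GABA (22.1, 1.21 and 23.2 FPKM), and adrb1, a beta-adrenergic receptor gene (8.29, 0.0767 and 16.5 FPKM). In matured 2, then, fshb and htr1aa were high where lhb, gh1 and gnrhr4 were at their lowest matured level.

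Summed levels of marker genes of other cells are given beside this, and their part in the high fshb and htr1aa of matured 2 was not tested. Of 16 marker lists, 6 had their highest matured sum in matured 2. Corticotrope and melanotrope markers (6 in the table) summed to 257, 398 and 313 FPKM in matured 1, 2 and 3, most of it pcsk2 (161, 302 and 245 FPKM). Like pcsk2, pax7b (8.05, 17.5 and 9.87 FPKM) and crhr1 (9.54, 16.6 and 4.32 FPKM) were highest in matured 2. The markers pomca (26.9, 20.1 and 10.6 FPKM) and tbx19 (51.1, 42.2 and 42.9 FPKM) were highest in matured 1. Thyrotrope markers (4 in the table) summed to 19.9, 25.1 and 13.5 FPKM, with the defining tshba at 0.158 FPKM or less. Lactotrope markers summed to 257, 275 and 218 FPKM, nearly all of it pou1f1, and oligodendrocyte markers to 9.11, 11.2 and 8.64 FPKM. The summed FPKM of 8 neuron markers was 208, 248 and 226 in matured 1, 2 and 3, and that of 7 immune cell markers 569, 703 and 614. That of 7 pituicyte and glia markers was 249, 184 and 203, lowest in matured 2 through glulb (182, 79.1 and 103 FPKM). Fabp7b (62.4, 99.6 and 93.5 FPKM) was highest in matured 2, while gfap and scn4ab were lowest there. Hypothalamic hormone genes (5 in the table, gnrh2 at 0 in every library) summed to 6.59, 9.70 and 21.3 FPKM. Most of the sum in matured 3 was sst1.1, at 16.3 FPKM. Npy was also highest in matured 3, oxt in matured 2 (2.77, 6.13 and 0.518 FPKM) and trh in matured 1. Ovary markers (6 in the table, fshr at 0 in every library) summed to 1.75, 0.0966 and 4.96 FPKM. Most of the sum in matured 1 and 3 was lhcgr (1.69, 0.0251 and 4.48 FPKM in matured 1, 2 and 3). Lhcgr is listed at 0 in every pre-matured library.

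Pre-matured 3, where lhb and fshb were highest among pre-matured libraries, stood apart in more genes. Lhb was one of its 48 high genes, 17th by excess. The 8 high genes with a symbol and the largest excess were lhb, 3 genes with a clone name only, and lgals3b, capn9, osbpl7 and ftr83. Lgals3b, a galectin gene, was at 32.8 FPKM in pre-matured 3, against 0.0774 FPKM in pre-matured 2 and a listed 0 in pre-matured 1. Capn9, a calpain protease gene, was at 14.3 FPKM there and is listed at 0 in the other five libraries. Of 14 genes as far below, pcsk2, a prohormone convertase gene, was at 6.16 FPKM in pre-matured 3 and at 144 and 456 FPKM in pre-matured 1 and 2. The homeobox gene otx2b is listed at 0 in pre-matured 3 and was at 11.4 and 11.7 FPKM in pre-matured 1 and 2. Oligodendrocyte markers (4 in the table) summed to 103 FPKM in pre-matured 3, most of it mbpa at 96.3 FPKM, and to 15.4 and 4.78 FPKM in pre-matured 1 and 2. The pituicyte and glia markers summed to 321 FPKM there, and to 179 and 183 FPKM in pre-matured 1 and 2. Most of the sum in pre-matured 3 was glulb at 203 FPKM, against 61.6 and 69.7 FPKM in pre-matured 1 and 2. Gfap and slc1a2b were also highest in pre-matured 3, and aqp4 was not. Fabp7b was lowest there, at 107 FPKM against 115 and 109 FPKM in pre-matured 1 and 2. The part of these differences in the higher lhb and fshb of pre-matured 3 was not tested.

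The genes most like each member were taken as those with the smallest root mean square difference of log2(FPKM + 1) over the 6 libraries, after each gene's own mean was subtracted. For lhb the nearest gene with a symbol, 8th among all genes, differed by 3.02, against a median of 5.70 over 17884 genes. It has a clone name only, and was followed by gnrhr4 (3.02), cltrn (3.05), slc17a5 (3.24) and fam20a (3.39). Cltrn, collectrin, was at 455, 60.2 and 452 FPKM in matured 1, 2 and 3, versus 2.51, 2.51 and 1.37 FPKM over the pre-matured group. Like lhb and gnrhr4, it was lowest in matured 2 among matured libraries.

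For fshb and for htr1aa the nearest gene was the same one, a gene with a clone name only, at root mean square differences of 1.14 and 0.58, against medians of 2.57 and 1.71 over all genes. It was at 1.76, 45.1 and 1.01 FPKM in matured 1, 2 and 3, versus 0.772, 0.337 and 2.88 FPKM over the pre-matured group. After it came npas4l, a bHLH-PAS transcription factor gene, for fshb (1.40). It was at 2.73, 24.5 and 0.231 FPKM in matured 1, 2 and 3, versus 0.812, 2.88 and 2.58 FPKM over the pre-matured group. L1cama, a neural cell adhesion molecule gene (1.75), tgfbi, a secreted matrix protein gene (1.78), and opn5, an opsin gene (1.82), followed. Opn5 was at 8.67, 55.4 and 11.7 FPKM in matured 1, 2 and 3, versus 10.5, 14.9 and 20.3 FPKM over the pre-matured group. For htr1aa the second with a symbol was skila, a SKI-like repressor gene of the SMAD pathway (0.67), at 4.88, 31.2 and 4.81 FPKM in matured 1, 2 and 3, versus 2.61, 2.49 and 1.57 FPKM over the pre-matured group. Pcbp3, an RNA-binding protein gene, was also among the 5 nearest with a symbol (0.83), with 2 clone-named genes besides, and was 15th among all genes. These differences describe 6 libraries and carry no test.

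**Figure D4:**
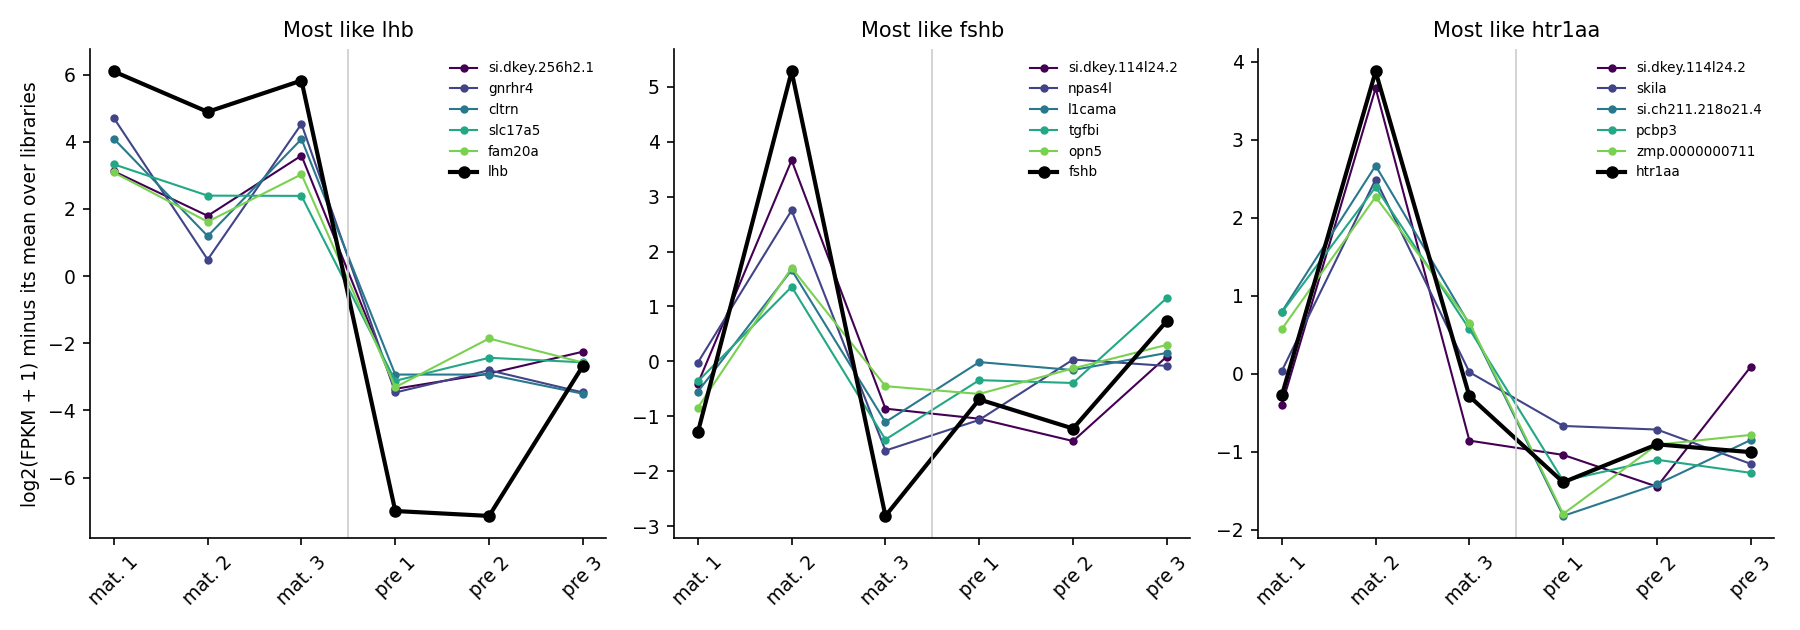
Level of the 5 symbol-bearing genes most like lhb, fshb and htr1aa (coloured) and of the member itself (black) in each library, as log2(FPKM + 1) minus the gene's mean over the 6 libraries. The genes most like fshb and htr1aa share the peak in matured 2, a likeness for which they were chosen. Those most like lhb are high in matured libraries, and all of them but slc17a5 dip in matured 2.

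The genes around the members were then compared between matured and pre-matured pituitaries. Beside the gonadotrope and somatotrope lists, which hold lhb and gh1, 3 marker lists had sums that did not overlap between the groups. Endothelial markers (5 in the table) summed to 41.5, 36.4 and 52.2 FPKM in matured 1, 2 and 3, versus 19.3, 32.9 and 21.8 FPKM over the pre-matured group, most of the matured sum being plvapb. The endothelial markers did not move together: plvapb and tie1 were higher in matured libraries without overlap, and cdh5 and kdrl overlapped. Egfl7 was lower without overlap, at 10.4, 8.42 and 12.3 FPKM in matured 1, 2 and 3, against 12.7, 21.8 and 13.6 FPKM in pre-matured 1, 2 and 3. The thyrotrope sums above compare with 3.08, 9.05 and 7.29 FPKM in pre-matured 1, 2 and 3, most of each sum being trhra. Trhra and trhr2 were higher in matured libraries without overlap, while gata2a and tshba overlapped. Tshba was highest in pre-matured 3, at 1.01 FPKM. The erythrocyte list had 1 gene in the table, alas2, at 2.39, 3.04 and 3.40 FPKM in matured 1, 2 and 3, versus 76.6, 7.12 and 14.97 FPKM over the pre-matured group. The part of these cells in the gene list counts was not tested. With limma (Benjamini-Hochberg adjusted p under 0.05), 23.4% of all 17887 genes, or 4184, rose in matured pituitaries and 10%, or 1797, fell. The split moved with scaling: 5818 rose and 978 fell with TPM, 3027 and 2737 after quantile normalization, 3228 and 2727 after median-ratio scaling, and 2930 and 2550 by voom. All genes had a median log2 fold change of 0.23, which scaling moved to 0.54 (TPM), -0.00061 (quantile), 0.03 (median-ratio) and 0.04 (voom). Among other hormone genes found by symbol, 3 of 8 were tested, 1 rose and none fell. Gh1, with the values above, rose with a log2 fold change of 3.05 ± 0.50 (SE, limma adjusted p = 0.00479). Smtlb, a somatolactin gene, and pomca, proopiomelanocortin, missed the threshold (limma adjusted p = 0.0823 and 0.497). Smtlb was uneven in both groups, with 1342, 1244 and 4698 FPKM in matured 1, 2 and 3, versus 68.9, 1757 and 28.1 FPKM over the pre-matured group. It was under the threshold without pre-matured 2 and with quantile normalization (limma adjusted p = 0.00439 and 0.0420). Gphb5, a glycoprotein hormone beta subunit of another kind, was below the filter at 2.11, 5.09 and 0.417 FPKM in matured 1, 2 and 3, versus 0.395 FPKM in pre-matured 1 and a listed 0 in pre-matured 2 and 3. Tshba, the thyrotropin beta subunit, was below it too, at 0.158 FPKM or less in matured libraries and 1.01 FPKM or less in pre-matured ones. The listed hormone symbols tshb, gh, smtla and pomcb, like cga, were not found in the table. Hormone genes under other names would be missed here.

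Of 21 gonadotropin regulators tested, 12 rose and 1 fell in matured pituitaries, with a median log2 fold change of 1.14. These are 57.1% and 4.76% of the list, beside 23.4% and 10% of all genes tested. Over all genes tested, 1942 of 16856 rose without matured 1 and 2081 of 16696 without matured 2. Of the regulators, 7 of 17 rose without matured 1 and 6 of 16 without matured 2, under a filter that then leaves fewer genes. By smallest p, the first 6 were the TGF-beta co-receptor gene tgfbr3, the oestrogen receptor genes esr1 and esr2b, the progesterone receptor gene pgr, the insulin-like growth factor receptor gene igf1ra and smad3b, an activin signal transducer. Tgfbr3 was at 20.9, 57.9 and 40.2 FPKM in matured 1, 2 and 3, against 0.121, 0.789 and 0.998 FPKM in pre-matured 1, 2 and 3. Esr1 was at 109, 175 and 111 FPKM in matured 1, 2 and 3, versus 11.3, 14.3 and 19.2 FPKM over the pre-matured group. Both were highest in matured 2, as fshb and htr1aa were, but by less than 2-fold over the next matured library for each. Pgr was at 156, 108 and 265 FPKM in matured 1, 2 and 3, lowest in matured 2, versus 5.09, 19.7 and 9.25 FPKM over the pre-matured group. Igf1ra was at 2.21, 3.18 and 2.57 FPKM against 0.184, 0.480 and 0.241 FPKM (log2 fold change 1.49 ± 0.24 SE, limma adjusted p = 0.00341). Gnrhr4, with 15306, 948 and 13738 reads in matured libraries, had 36 reads in pre-matured 2 and is listed at 0 in pre-matured 1 and 3 (limma adjusted p = 0.00450, and 0.242 with voom on rebuilt reads). Tgfbr3, igf1ra, gnrhr4 and the list gene adcyap1r1b passed the filter only through their matured values. Each could therefore enter the count only as a higher gene. With no filter, 13 of 36 regulators rose, beside 3676 of 27501 of all genes. The dopamine D2 receptor genes drd2a and drd2b, through which dopamine restrains gonadotropin release in eels, did not pass (limma adjusted p = 0.102 and 0.245). Drd2a was under the threshold without matured 1 and drd2b without pre-matured 2 (limma adjusted p = 0.0436 and 0.0305). A further D2 receptor gene, drd2l, was below the filter and not tested. It was at 0.781, 1.63 and 0.556 FPKM in matured 1, 2 and 3. In pre-matured 1 and 2 it was at 0.162 and 0.0187 FPKM, and it is listed at 0 in pre-matured 3. Pgrmc2, a membrane progesterone receptor component gene, was the lone regulator to fall, by limma adjusted p = 0.00950, and 0.0834 with TPM. The D2 receptor genes, pgrmc2 and, below, egr1, foxl2a, gnai1, gnai3, adcy8 and gnb1a were named after their values were seen.

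Of 27 transcription factor genes of gonadotropes and other pituitary cells tested, 8 rose and 2 fell, with a median log2 fold change of 0.54. These are 29.6% and 7.41% of the list, near the 23.4% and 10% of all genes tested. With median-ratio scaling or voom, 5 rose and 4 fell. The homeobox gene pitx1, an activator of gonadotropin subunit genes in mammals, was at 398, 517 and 190 FPKM in matured 1, 2 and 3, against 101, 143 and 117 FPKM in pre-matured 1, 2 and 3 (limma adjusted p = 0.0140, and 0.0550 without matured 1). The CREB gene creb1b, a target of protein kinase A, was at 3.39, 3.43 and 2.39 FPKM over the matured group and at 0.510 and 0.237 FPKM in pre-matured 2 and 3, with pre-matured 1 listed at 0 (limma adjusted p = 0.00289). Creb1b passed the filter only through its matured values, so it could be counted only as higher. Eya1 and tead1a were the other higher genes among the 6 with the smallest p. The falls were of atf3, a stress-inducible factor gene, at 0.355, 0.381 and 0.964 FPKM in matured 1, 2 and 3, versus 9.01, 6.28 and 10.2 FPKM over the pre-matured group, and of tbx19, the corticotrope factor gene, at 45.4 ± 4.92 against 139 ± 51.8 FPKM (SD, n = 3; limma adjusted p = 0.00115 and 0.00576). Atf3 passed the filter only through its pre-matured values, so it could be counted only as lower. Egr1, which in mammals mediates the effect of gonadotropin-releasing hormone on Lhb, was at 5.47, 19.7 and 6.55 FPKM in matured 1, 2 and 3, versus 7.93, 6.67 and 2.44 FPKM over the pre-matured group (limma adjusted p = 0.325). The gonadotrope factor gene foxl2a was at 0.0289 FPKM in matured 1 and is listed at 0 in every other library. The listed genes foxl2b, nr5a1a and nr5a1b were not found by symbol in the table. A copy under another name would be missed here.

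Of the other serotonin genes, 5 of 18 in the table passed the filter, 1 rose and none fell. The share that rose was 20%, beside 23.4% of all genes tested. The one that rose was htr1b, a receptor gene of the same inhibitory class as htr1aa, at 2.87, 2.73 and 1.75 FPKM in matured 1, 2 and 3. It was at 0.129 and 0.132 FPKM in pre-matured 2 and 3 and is listed at 0 in pre-matured 1 (log2 fold change 1.65 ± 0.24 SE, limma adjusted p = 0.00248). Unlike htr1aa it had no peak in matured 2. Htr1b passed the filter only through its matured values, so it could be counted only as higher. The call was not available without any 1 matured library, since htr1b then fell below the filter. Htr1d, of the same class, was at 0.542, 3.70 and 6.23 FPKM in matured 1, 2 and 3, versus 0.725, 0.0813 and 2.55 FPKM over the pre-matured group and did not pass (limma adjusted p = 0.258). Slc18a2, the vesicular monoamine transporter, was highest in matured 2 like htr1aa, with 25.8, 80.0 and 21.1 FPKM in matured 1, 2 and 3, versus 3.75, 26.1 and 0.931 FPKM over the pre-matured group. Its limma adjusted p was 0.0777, and 0.00962 when pre-matured 2 was left out. The serotonin transporter genes slc6a4a and slc6a4b did not pass (limma adjusted p = 0.842 and 0.308). Aanat2, of melatonin synthesis, was below the filter, at 1.63 FPKM in pre-matured 3 and 0.267 FPKM or less in the other five libraries.

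Of 25 G protein and cAMP genes tested, the route on which an inhibitory receptor acts, 10 rose and 2 fell, with a median log2 fold change of 0.59. These are 40% and 8% of the list, beside 23.4% and 10% of all genes tested. Of the list, 5 of 23 rose without matured 1 and 5 of 22 without matured 2. Beside these, 1942 of 16856 and 2081 of 16696 of all genes tested rose. The inhibitory G protein gene gnai2a rose, with 22.6, 21.6 and 20.3 FPKM in matured 1, 2 and 3, against 6.38, 9.11 and 11.9 FPKM in pre-matured 1, 2 and 3 (limma adjusted p = 0.00788). Its relatives gnai1 and gnai3 did not pass (limma adjusted p = 0.358 and 0.373). The adenylyl cyclase genes adcy5 and adcy3a rose with log2 fold changes of 1.29 ± 0.23 and 1.19 ± 0.24 (SE). The falls were of adcy8 (-1.46 ± 0.36, SE; limma adjusted p = 0.0161, and 0.0569 without matured 3) and gnb1a (limma adjusted p = 0.0494). The gnb1a call was lost without any 1 library (limma adjusted p = 0.0531 to 0.169), with no filter, with a pseudocount of 0.1, with TPM (limma adjusted p = 0.345) and after quantile normalization. Prkacba, a catalytic subunit gene of protein kinase A, rose to 31.7 ± 3.07 FPKM, against 14.0 ± 1.91 FPKM in pre-matured pituitaries (SD, n = 3 each; limma adjusted p = 0.00408). The phosphodiesterase gene pde4a and pde4dip, a phosphodiesterase-binding protein gene taken in by its shared name, had the smallest p of the list (limma adjusted p = 0.00220 and 0.00208). Pde4a and the list gene rgs7bpa passed the filter only through their matured values, so they could be counted only as higher. Matured 2 was the highest matured library for pde4a (2.95, 4.32 and 3.49 FPKM in matured 1, 2 and 3) and prkacba, without a gap of the size seen for htr1aa.

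**Figure D5:**
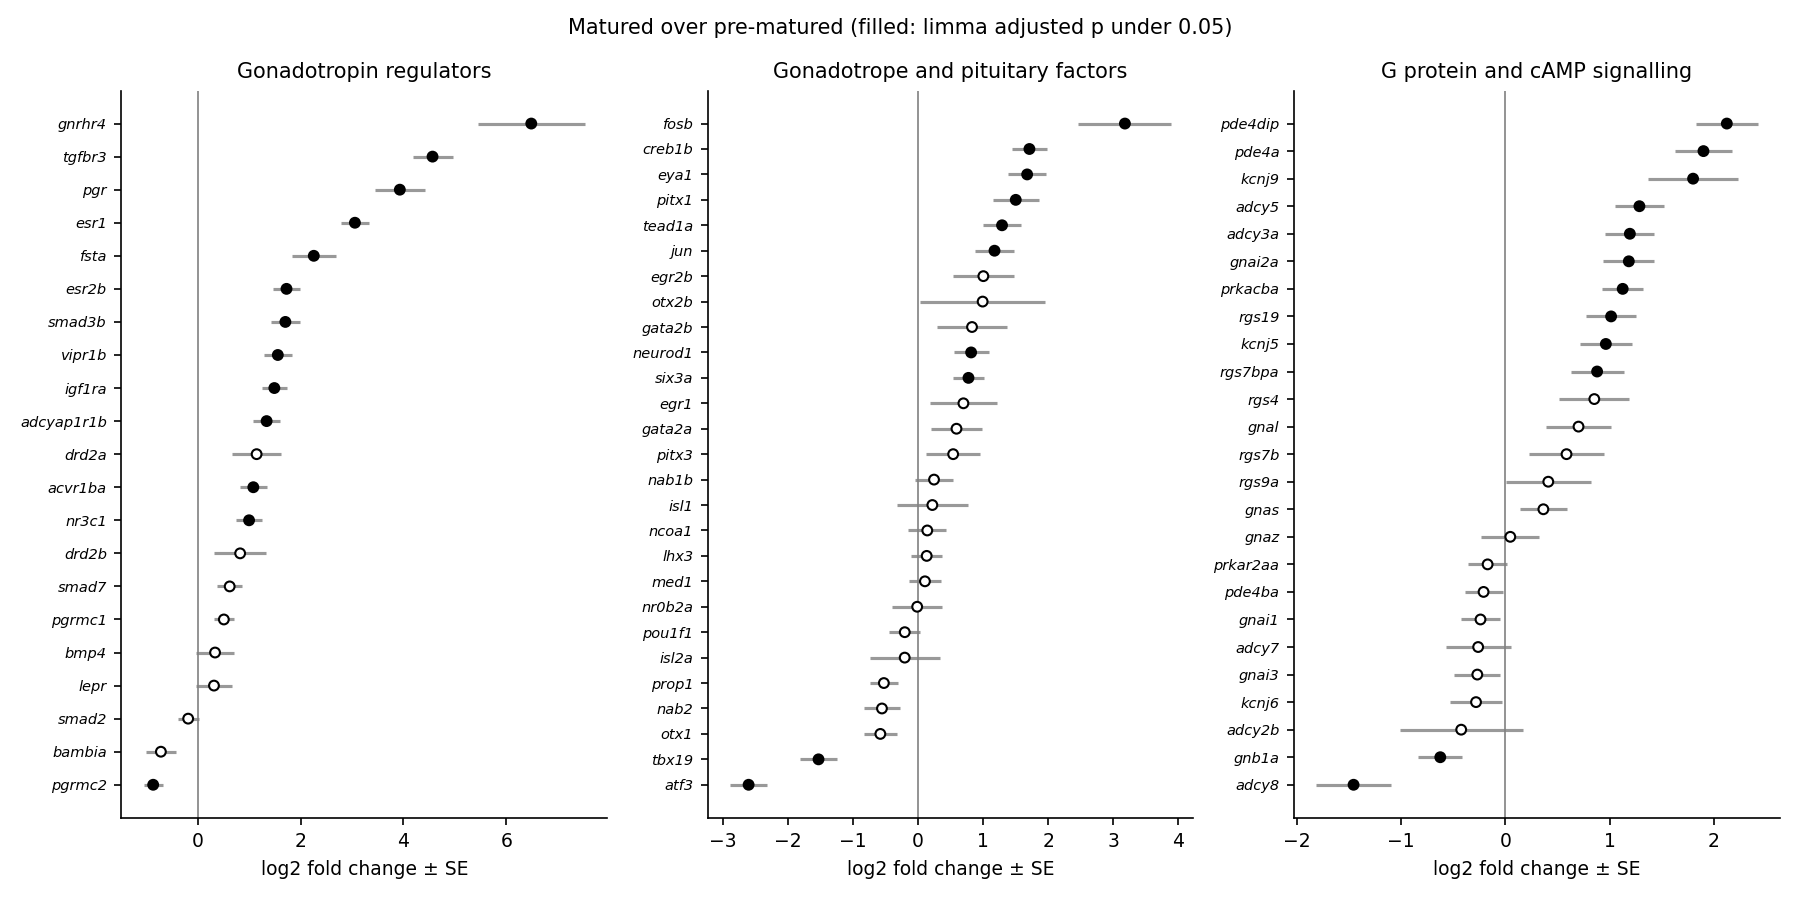
Log2 fold change of matured over pre-matured pituitaries on the log2(FPKM + 1) scale, with its standard error from limma, for the tested genes of 3 lists. Filled points passed an adjusted p under 0.05: 12 of 21 gonadotropin regulators, 8 of 27 pituitary factors and 10 of 25 G protein and cAMP genes were higher. Those are 57.1%, 29.6% and 40% of the lists, beside 23.4% of all genes tested.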

How the data were processed

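Total RNA of female eel pituitaries was sequenced on Illumina libraries. The submitters' processing notes name CASAVA 1.8. Aligner, counter, build and annotation: not given in the sources used here. Deposited values were taken as FPKM from the values alone (FPKM and RPKM cannot be told apart), scaled by the authors to gene length and depth. Whole reads were rebuilt from ratios between libraries for 100% of 25782 genes above 0 in at least 2 libraries (relative tolerance 1e-12).

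Groups follow the labels' age field. Replicates were numbered by accession, so the numbers pair no samples. Nothing says that libraries came from separate animals, so p-values measure the spread between these samples, which may be technical. Genes reaching 1 FPKM in 3 of the 6 libraries entered the test on the log2(FPKM + 1) scale, which understates the change of low genes, with limma 3.58.1 in R 4.3.3 (trend and robust settings) and Benjamini-Hochberg adjustment over all genes. The rebuilding and the test were both tested on simulated data. Reads were rebuilt exactly for 5904 of 5964 genes there. At a 2-fold change the test recovered 8 of 194 changed genes (4.12%), with 11 genes called. At a 4-fold change it recovered 173 of 193 (89.6%), with 187 called. The simulated data held far fewer changed genes than were called in the real data, with the same spread setting for every gene. These shares therefore do not give the recovery in the real data. A gene that missed the threshold was still not shown to be unchanged. Python 3.11.15, numpy 2.4.6, pandas 2.3.3, scipy 1.17.1 and matplotlib 3.10.9 were used.

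The members and the 5 gene lists were chosen with earlier results of these data known. Named were every hormone and serotonin gene with FPKM of 1 or more in any library, the 6 genes with the smallest p of each other list, the 5 genes with a symbol most like each member, and the 8 genes with a symbol highest in matured 2 and pre-matured 3. Clone names are shown in plots only. Markers of 16 cell types were summed. Sequences were not used here. Alternatives were the pseudocount, the filter, TPM, quantile and median-ratio scaling, voom on rebuilt reads, a fold of 2 and leaving out each library.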

Additional observations from a re-analysis of the deposited data

How the results depend on the processing

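Of the levels, fshb was the one whose direction turned: its log2 fold change of 0.78 was -1.66 without matured 2 and lay between -1.66 and 2.38 when 1 library was left out. That of htr1aa was 4.90 with voom on rebuilt reads and 0.82 to 2.90 with 1 library left out. That of lhb was 10.44 to 12.67. Genes higher in matured pituitaries numbered 2714 with a filter of 5 FPKM, where fewer genes were tested, and 1942 to 3954 with 1 library left out. Genes lower numbered 1116 with a fold of at least 2, 978 with TPM, 2737 after quantile normalization, 2727 after median-ratio scaling and 958 to 1553 with 1 library left out. Hormone genes higher numbered 2 with quantile normalization and 1 to 2 with 1 library left out. Gonadotropin regulators lower numbered 0 with a fold of at least 2 or TPM and 2 after quantile normalization, after median-ratio scaling or by voom, and those higher 6 to 13 with 1 library left out. Pituitary factors higher and lower numbered 5 and 4 with median-ratio scaling or voom, and 3 to 8 and 1 to 2 with 1 library left out. Serotonin genes higher numbered 0 with a filter of 5 FPKM and 0 to 2 with 1 library left out. G protein and cAMP genes lower numbered 1 with a fold of at least 2, no filter, a pseudocount of 0.1, TPM or quantile normalization and 0 to 1 with 1 library left out, and those higher 5 to 10. The serotonin count was 0 where htr1b was below the filter. The cause of the other shifts was not tested. With a 4-fold in place of an 8-fold excess, high genes numbered 37, 62 and 50 in matured 1, 2 and 3, and 44, 52 and 126 in pre-matured 1, 2 and 3, so matured 2 then had the most of the matured libraries. No paired analysis was made, since the labels name no pairs of libraries. With 3 libraries a group and 0 to 16 reads behind the lowest values of lhb, fshb and htr1aa, small differences at that level were not detectable.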
